A study of Mus musculus with 8 samples.

Results

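Klk6, a secreted protease that oligodendrocytes express, was examined together with 8 genes of the central nervous system myelin sheath (Mbp, Mog, Mag, Mobp, Cnp, Mal, Ugt8a and Opalin) in the hippocampus of young and very old mice. Members were all probes whose accession mapped to 1 of these 9 genes, which gave 13 probes of the 39429 on the array and 9 genes of 19751. Klk6 and 6 of the myelin genes were measured by 1 probe each, and Mbp and Mobp by 3 probes each. RNA of the whole hippocampus, dissected by hand, carried the Cy3 dye on 1-colour microarrays, on which the brightness of a spot reports the abundance of a transcript. The groups were C57BL/6J mice of wild type genotype at 3 months of age (3M, 4 arrays) and at 29 months (29M, 4 arrays), kept in their home cages with no other treatment. The labels do not say whether each array stands for a separate animal, so p-values measure the spread between these samples, which may be partly technical.

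Oligodendrocytes wrap axons with myelin, a stack of membrane rich in lipid and in a small set of proteins. In the mature sheath, Mbp and Mobp hold the cytoplasmic faces of the membrane together, Cnp keeps cytoplasmic channels open, Mag faces the axon and Mog lies on the outer surface. Mal is a membrane protein of lipid-rich domains, Ugt8a makes the galactolipids of myelin, and Opalin is a membrane glycoprotein of oligodendrocytes. Klk6 belongs to the kallikreins, a family of secreted serine proteases, and can cleave myelin proteins as well as activate receptors of the protease-activated family. In whole-tissue RNA fewer cells of a type and less RNA per cell cannot be told apart.

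Each of the 3 slides used carried arrays of 3M and of 29M, and 76.2% to 85.0% of the 43020 spots of an array that were not controls were well above background. No spot was saturated, and the software's quality mark was in range for all arrays but replicate 1 of 3M, which it gave as in need of evaluation. All 13 probes of Klk6 and the myelin genes were well above background on all 8 arrays, so each of them had a measured level in both groups. Levels are given as normalized log2 intensity and differences as the log2 change of 29M minus 3M, on a generalized log2 scale that understates the change of dim probes. A probe was called when its limma adjusted p was under 0.1 and its log2 change was at least 0.5 in size. Over all 39408 probes tested, 2.06% were called, with 1.25% higher and 0.817% lower in 29M, and the values of the groups did not overlap for 11.1% of probes.

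Klk6 was higher in 29M than in 3M in every array. Its spot intensity before normalization was 554, 596, 323 and 1126 scanner units in replicates 1 to 4 of 3M. In replicates 1 to 4 of 29M it was 6103, 8065, 6677 and 1727 scanner units. The groups did not overlap, as was the case with 29M higher for 5.51% of all probes, but the highest array of 3M and the lowest of 29M, which are replicate 4 of each group, lay near each other.

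After normalization the log2 intensity of Klk6 was 9.09, 9.18, 8.22 and 10.19 in 3M and 12.57, 12.87, 12.74 and 10.82 in 29M. The 3M mean was 9.17 ± 0.81 (SD, n = 4), while that of 29M was 12.25 ± 0.96 (SD, n = 4). Klk6 rose by a log2 change of 3.08 (SE 0.50, 95% confidence interval 1.95 to 4.21, limma adjusted p 0.0232), which is 8.45-fold. This was the third largest rise among 19742 genes when each gene was represented by its brightest probe. The SD of Klk6 was above that of every myelin probe in both groups, where the myelin probes ranged from 0.10 to 0.36 in 3M and from 0.02 to 0.35 in 29M. Replicate 4 of 29M stood apart from the other arrays of its group, and without it the rise was 3.55 (limma adjusted p 0.00989). Without replicate 1 of 3M it was 3.05 (limma adjusted p 0.0251).

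The rise was also seen within each slide. On slide 1, which held replicate 1 of 3M and replicates 3 and 4 of 29M, the log2 difference of Klk6 was 2.69. On slide 2, with replicate 2 of each group, it was 3.68, and on slide 3, with replicates 3 and 4 of 3M and replicate 1 of 29M, it was 3.36. With slide as a fixed block the change was 3.21 (limma adjusted p 0.0595). Klk6 was called in 17 of 18 alternative settings, over which its limma adjusted p ran from 0.00989 to 0.105.

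**Figure D1:**
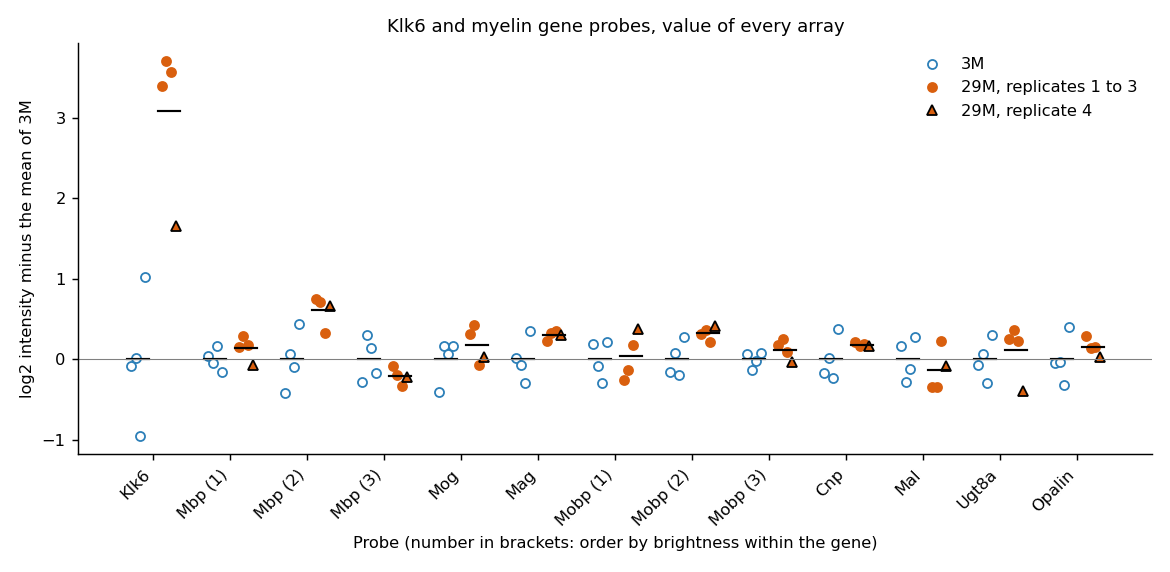
Normalized log2 intensity of each probe in each of the 8 arrays, minus that probe's mean in 3M (vertical axis, log2), for Klk6 and the 8 myelin genes (horizontal axis). Open circles are 3M arrays, filled circles are replicates 1 to 3 of 29M, triangles are replicate 4 of 29M and short lines are group means. All 4 arrays of 29M lie above the 4 of 3M for Klk6, and the groups overlap for all 12 myelin probes.

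RefSeq places Klk6 on chromosome 7 of the mouse genome (gene ID 19144) with 2 start sites, and the promoter windows of both are printed here because Klk6 is the gene of the set that changed. A window runs from 250 bases before the start to 50 bases after it, in build GRCm38.p6. Capitals mark ACAAAG, core letters that factors of the SOX family can bind, among them Sox10, a regulator of oligodendrocyte genes. Both strands were searched, so a match on the opposite strand reads CTTTGT. The first window of Klk6 held 1 match and the second held 0, beside 18.7% of 32851 promoter windows of the same length with at least 1 match.
Klk6 window 1, chr7:43824294-43824593, plus strand: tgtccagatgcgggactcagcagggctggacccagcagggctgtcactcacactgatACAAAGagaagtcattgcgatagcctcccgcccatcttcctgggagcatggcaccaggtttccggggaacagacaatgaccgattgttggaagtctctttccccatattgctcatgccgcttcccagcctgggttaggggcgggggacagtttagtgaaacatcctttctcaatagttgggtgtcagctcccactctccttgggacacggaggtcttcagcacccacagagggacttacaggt
Klk6 window 2, chr7:43825200-43825499, plus strand: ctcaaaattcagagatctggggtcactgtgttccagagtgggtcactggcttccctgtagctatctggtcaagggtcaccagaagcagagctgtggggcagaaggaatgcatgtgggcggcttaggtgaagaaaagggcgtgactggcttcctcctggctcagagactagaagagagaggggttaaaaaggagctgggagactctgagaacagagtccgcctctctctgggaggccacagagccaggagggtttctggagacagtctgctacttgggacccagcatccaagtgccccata

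None of the 12 probes of the 8 myelin genes was called in either direction, beside 2.06% of all probes. The groups overlapped for each of these probes, against 11.1% of all probes without overlap. Of the 12 log2 changes 10 were above 0 and 2 below, and they ran from -0.20 to 0.62. Before adjustment 3 of the 12 had a limma p under 0.05, namely the second probes of Mbp and Mobp and the probe of Mag. With the brightest probe of each gene, 7 of the 8 genes had a change above 0, and the median of the 8 changes was 0.15. Over all genes 52.8% had a change above 0 and the median was 0.01.

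Mbp and Mobp, genes of compact myelin, were each measured by several probes, which are numbered here by their brightness. Mbp, the main cytoplasmic protein that seals the layers of compact myelin, lies on chromosome 18 (gene ID 17196). Its probe 1 had log2 intensities of 14.32, 14.23, 14.44 and 14.12 in 3M and 14.43, 14.57, 14.46 and 14.21 in 29M. The change was 0.15 (SE 0.10, 95% confidence interval -0.09 to 0.38, limma adjusted p 0.526), with overlapping groups.

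Probe 2 of Mbp showed the largest change among the myelin probes. Its log2 intensities were 11.23, 11.71, 11.55 and 12.09 in 3M and 12.40, 12.36, 11.98 and 12.31 in 29M. Replicate 4 of 3M lay above replicate 3 of 29M, and these were the arrays by which the groups overlapped. The change was 0.62 (SE 0.17, 95% confidence interval 0.22 to 1.01, limma adjusted p 0.126). It passed both thresholds in 2 of 17 alternative settings, with slide as a fixed block (0.72, limma adjusted p 0.0951) and without replicate 4 of 3M (0.76, limma adjusted p 0.0628). Within slides 1, 2 and 3 the difference was 0.91, 0.65 and 0.58.

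Probe 3 of Mbp, which matches the same RefSeq transcript as probe 2, did not share that direction. It was dim, with log2 intensities of 6.66, 7.24, 7.08 and 6.77 in 3M and 6.86, 6.74, 6.61 and 6.72 in 29M. Its change was -0.20 (SE 0.13, limma adjusted p 0.484). The change of probe 1 was thus 0.47 below that of probe 2 and 0.35 above that of probe 3, and the 3 probes gave Mbp no common direction.

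Mobp, a small basic protein of compact myelin, lies on chromosome 9 (gene ID 17433). Its probe 1 had log2 intensities of 15.00, 14.72, 14.51 and 15.02 in 3M and 14.55, 14.68, 14.99 and 15.19 in 29M. The ranges nearly coincided, and the change was 0.04 (SE 0.17, 95% confidence interval -0.33 to 0.41, limma adjusted p 0.935). It was below 0 in 4 of 18 alternative settings, with slide as a fixed block (-0.06), without replicate 3 of 3M (-0.06) and, in 29M, without replicate 3 (-0.01) or 4 (-0.08).

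Probe 2 of Mobp had log2 intensities of 11.93, 12.17, 11.89 and 12.37 in 3M and 12.40, 12.45, 12.30 and 12.50 in 29M. Only replicate 4 of 3M reached into the range of 29M, above its replicate 3. The change was 0.32 (SE 0.12, 95% confidence interval 0.06 to 0.58, limma adjusted p 0.207). Probe 3 of Mobp, matched to the same transcript as probe 2, ran from 9.66 to 9.87 in 3M and from 9.75 to 10.04 in 29M. Its change was 0.12 (SE 0.09, limma adjusted p 0.560).

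The Mobp promoter window is printed because it was the only 1 of 32851 windows with 6 or more matches to ACAAAG. All 6 of its matches lie on the strand opposite to the gene and read CTTTGT in the printed sequence.
Mobp, chr9:120149492-120149791, plus strand: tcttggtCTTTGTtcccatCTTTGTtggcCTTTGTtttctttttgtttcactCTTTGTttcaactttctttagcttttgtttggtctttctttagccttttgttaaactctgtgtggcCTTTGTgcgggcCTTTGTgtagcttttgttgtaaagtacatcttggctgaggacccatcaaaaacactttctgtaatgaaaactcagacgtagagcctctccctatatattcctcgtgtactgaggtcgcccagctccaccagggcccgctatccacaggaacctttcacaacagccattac
Mbp was left out of the promoter search. Of the 8 members whose windows were searched, 5 held at least 1 match, namely Klk6, Mag, Mobp, Cnp and Opalin. By window this was 6 of 11, beside 18.7% of all 32851 windows. Windows 2 and 3 of Mag, with 1 match each, overlap for most of their length, so their matches may be the same. The windows of Mog, Mal and Ugt8a held 0 matches, so genes that were not called fell on both sides of this split, and Klk6 was among those with a match.

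Mag, an adhesion molecule of the innermost layer that faces the axon, lies on chromosome 7 (gene ID 17136). Its log2 intensities were 15.73, 15.64, 15.41 and 16.06 in 3M and 15.93, 16.04, 16.06 and 16.01 in 29M. The 4 arrays of 29M lay close together at the upper end of the range of 3M. Mag changed by 0.30 (SE 0.13, 95% confidence interval 0.01 to 0.59), with an unadjusted limma p of 0.0432 and an adjusted p of 0.278.

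Cnp, the phosphodiesterase that keeps channels of cytoplasm open between the layers, lies on chromosome 11 (gene ID 12799). It had log2 intensities of 14.83, 15.02, 14.77 and 15.37 in 3M and 15.21, 15.17, 15.19 and 15.16 in 29M. All 4 arrays of 29M fell inside the range of 3M. The change was 0.18 (SE 0.13, 95% confidence interval -0.10 to 0.47, limma adjusted p 0.511). For Cnp the SD was 0.27 in 3M and 0.02 in 29M, and for Mag it was 0.27 and 0.06. Differences in spread were not tested.

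Mog, an immunoglobulin-like protein of the outermost myelin surface, lies on chromosome 17 (gene ID 17441). Its log2 intensities were 11.84, 12.41, 12.32 and 12.42 in 3M and 12.56, 12.67, 12.18 and 12.28 in 29M. Replicate 1 was the lowest array of 3M, and 2 arrays of 29M lay below the 3 highest of 3M. The change was 0.17 (SE 0.16, 95% confidence interval -0.18 to 0.53, limma adjusted p 0.621).

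Opalin, a glycoprotein found in the oligodendrocyte membrane, lies on chromosome 19 (gene ID 226115). It had log2 intensities of 11.43, 11.45, 11.16 and 11.88 in 3M and 11.77, 11.62, 11.63 and 11.51 in 29M. The highest value of both groups was that of replicate 4 of 3M. The change was 0.16 (SE 0.14, 95% confidence interval -0.16 to 0.47, limma adjusted p 0.625).

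Mal, a proteolipid of membrane trafficking, lies on chromosome 2 (gene ID 17153) and was the myelin gene with a brightest probe below 0. Its log2 intensities were 16.56, 16.12, 16.28 and 16.67 in 3M and 16.05, 16.06, 16.63 and 16.31 in 29M. The 2 lowest arrays belonged to 29M, but replicate 3 of 29M was nearly as high as the highest array of 3M. The change was -0.14 (SE 0.16, 95% confidence interval -0.51 to 0.22, limma adjusted p 0.710).

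Ugt8a, the transferase that makes galactosylceramide, lies on chromosome 3 (gene ID 22239). It had log2 intensities of 12.69, 12.83, 12.47 and 13.06 in 3M and 13.01, 13.12, 12.99 and 12.36 in 29M. Replicates 1 to 3 of 29M lay at the upper end, while replicate 4 of 29M was the lowest of all 8 arrays, as it was the lowest of 29M for Klk6. The change was 0.11 (SE 0.18, 95% confidence interval -0.30 to 0.52, limma adjusted p 0.811), and 0.28 (limma adjusted p 0.419) without that array.

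**Figure D2:**
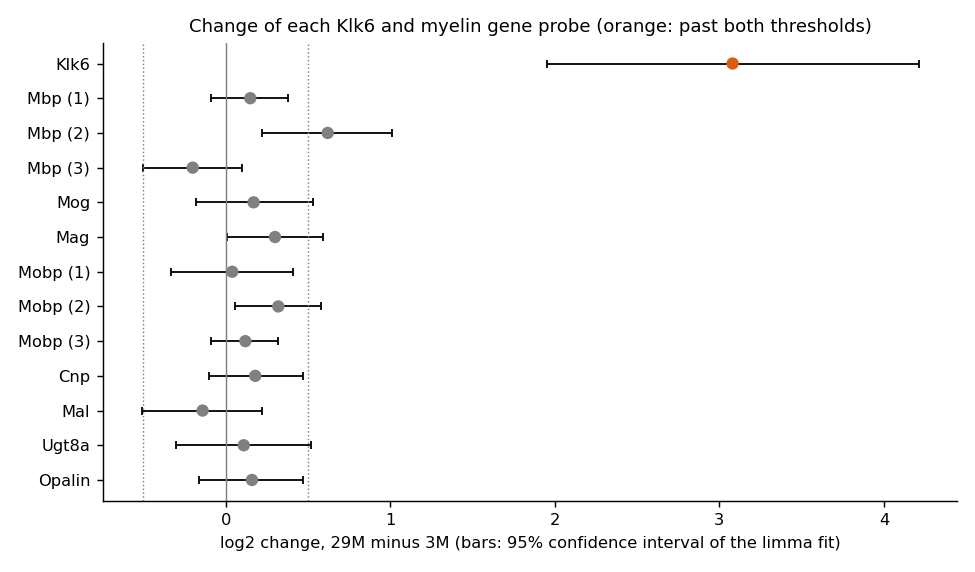
Log2 change of 29M minus 3M (horizontal axis) for each probe of Klk6 and the 8 myelin genes, with bars for the 95% confidence interval of the limma fit and dotted lines at a size of 0.5. The interval of Klk6 runs from 1.95 to 4.21, while the highest upper limit of a myelin probe is 1.01, for probe 2 of Mbp.

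Klk6 thus differed from the myelin genes in size of change. Its interval began at 1.95, and the upper limit for the brightest probes of the 8 myelin genes was at most 0.59, for Mag. For none of the 8 does a missed threshold show that its level was equal at both ages, since intervals as wide as those of Mag, Mog and Ugt8a also hold changes of 0.5.

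Array by array, Klk6 was set beside the mean of the myelin genes. A myelin score was taken as the mean, over the 8 genes, of the log2 intensity minus the mean of that gene over the 8 arrays. The score was -0.10, -0.09, -0.23 and 0.18 in replicates 1 to 4 of 3M and 0.04, 0.09, 0.12 and -0.02 in those of 29M. The 4 arrays of 3M had the same order in this score and in Klk6, with replicate 3 lowest and replicate 4 highest, and in both measures replicate 4 was the lowest array of 29M. Single myelin genes did not all follow this order. Among the 3M arrays probe 1 of Mbp was highest in replicate 3 and lowest in replicate 4, the reverse of Klk6, and among those of 29M probe 1 of Mobp was highest in replicate 4.

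**Figure D3:**
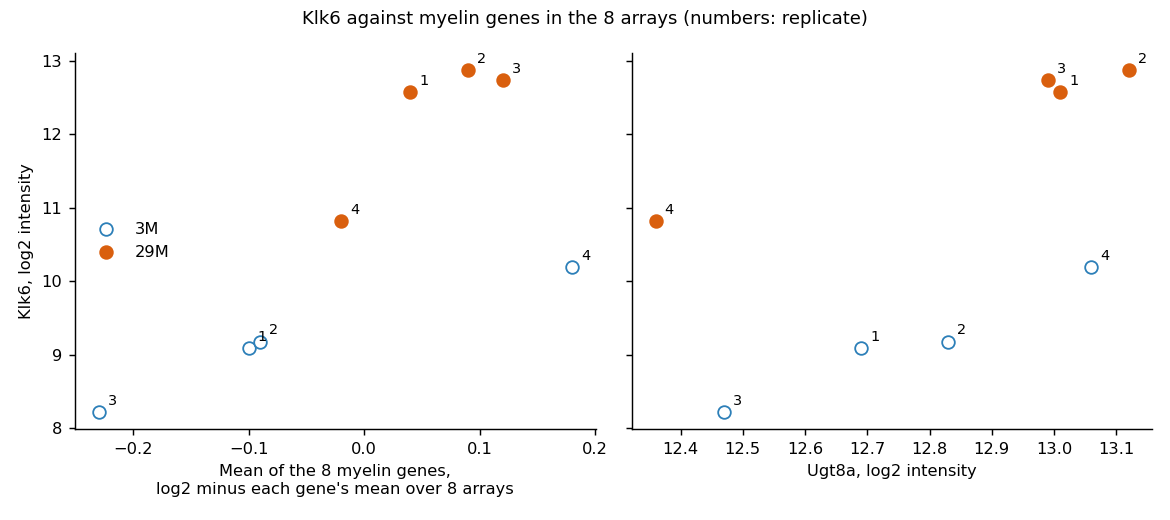
Log2 intensity of Klk6 (vertical axes) against the myelin score (left, log2 units) and against the log2 intensity of Ugt8a (right) in the 8 arrays, with replicate numbers beside the points. Open circles are 3M and filled circles 29M. Within each group Klk6 was lowest where Ugt8a was lowest.

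The genes most like Klk6 in this variation were sought among the 15921 genes whose brightest probe was well above background on all 8 arrays. Likeness was the Pearson r of deviations from the group means over the 8 arrays, a description of samples that share slides and processing. Of all these genes the one with the highest r to Klk6 was a myelin gene, Ugt8a (r = 0.99, Spearman rho = 0.98). It was followed by Cdc6, a DNA replication licensing factor (r = 0.98), the olfactory receptor gene Olfr153, and Agfg1 and Armh4 (r = 0.97 each). By rho the order differed, with 1 for Armh4, above Ugt8a, 0.95 for Olfr153 and Agfg1 and 0.88 for Cdc6. None of these 5 genes was called, and their log2 changes lay between -0.02 and 0.23. Most like the mean of the 8 myelin genes were Gpr34, Gjb1, Ednrb, Ppp1r14a and Rasgrp3, each with r = 0.98. Among them Gjb1, a gap junction protein of oligodendrocytes, changed by 0.49 (limma adjusted p 0.140), Rasgrp3 by 0.52 (limma adjusted p 0.126), and none was called. With 8 arrays, of which replicate 4 of 29M stands apart in Klk6 and Ugt8a, such values rest on few points.

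Other genes of the myelinating cell were read from lists, each gene by its brightest probe, beside 1.58% of all 19742 genes called higher and 0.699% called lower in 29M. Of 24 other genes of the myelin sheath and the node of Ranvier, 4 rose, 0 fell and 20 were not called. The median change was 0.25, and 19 of the 24 were above 0. Hapln2, a link protein of the matrix at the node, had log2 intensities of 9.87, 10.11, 9.92 and 10.33 in 3M and 11.10, 11.04, 10.92 and 11.17 in 29M. Its groups were separate, and it rose by 1.0 (SE 0.12, limma adjusted p 0.00499). Tppp3, a tubulin-binding protein, and Pmp22, a tetraspan myelin protein, rose by 0.63 each (limma adjusted p 0.0659 and 0.0429), and Prrg1 rose by 0.51 (limma adjusted p 0.0819). Of these 4 calls only that of Hapln2 was kept in all 18 alternative settings. The count was 1 with slide as a fixed block, 1 without replicate 2 or 3 of 3M or replicate 2 of 29M, 2 with the replicate block, 2 without replicate 1, 3 or 4 of 29M and 6 without replicate 4 of 3M. At the other end of the list was Nfasc, the neurofascin of the node and paranode, with a change of -0.29 (limma adjusted p 0.419).

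Ermn of that list, a cytoskeletal protein of myelinating oligodendrocytes, is named after its values were seen and gave opposite values by probe. Its brightest probe changed by -0.24 (limma adjusted p 0.297), while another probe rose by 0.76 (SE 0.15, limma adjusted p 0.0452) with separate groups. No direction is given for Ermn on that account.

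The list with the most calls was that of mature oligodendrocyte genes outside the sheath proteins. Of 23 such genes (Mog was left out of the list as a myelin member) 6 rose, 0 fell and 17 were not called, with a median change of 0.37 and 18 above 0. Anln, the actin-binding anillin, had log2 intensities of 12.66, 12.80, 12.80 and 13.02 in 3M and 13.79, 13.93, 13.72 and 14.05 in 29M. The groups lay well apart, and it rose by 1.06 (SE 0.11, limma adjusted p 0.00332). Apod, a secreted lipid-binding lipocalin, rose by 0.94 (limma adjusted p 0.0106). Il33, a nuclear cytokine that oligodendrocytes hold, rose by 0.91 (limma adjusted p 0.00771). Nkx6-2, a homeobox factor of late oligodendrocytes, rose by 0.80 (limma adjusted p 0.0106). The iron carrier gene Trf and the muscle-type adenylosuccinate synthase gene Adssl1 rose by 0.78 and 0.61 (limma adjusted p 0.0325 and 0.0683). The lowest change of the list was that of Josd2, at -0.16 (limma adjusted p 0.686).

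The calls of Anln, Il33 and Nkx6-2 were kept in all 18 alternative settings. That of Apod was kept in 17, that of Trf in 13 and that of Adssl1 in 9. The setting that lost Apod was the mean of all its probes (1.89, limma adjusted p 0.192). A dimmer probe of Apod had no usable value in replicate 4 of 29M, so the mean of that array came out too high. The value of 1.89 is thus no measure of the rise. That dimmer probe itself rose by 1.33 (limma adjusted p 0.00196). The call of Trf was lost when replicate 2 of 3M (limma adjusted p 0.111) or replicate 1 of 29M (limma adjusted p 0.102) was left out. With the replicate block it was also lost (limma adjusted p 0.104). Processed signals lost it too, set to a percentile (limma adjusted p 0.169) or in the variance stabilising model (limma adjusted p 0.154). The call of Adssl1 was lost without replicate 2 (limma adjusted p 0.183), 3 (limma adjusted p 0.139) or 4 (limma adjusted p 0.119) of 3M. In 29M it was lost without replicate 2 (limma adjusted p 0.147), 3 (limma adjusted p 0.114) or 4 (limma adjusted p 0.141). The replicate block (limma adjusted p 0.161) and the same uses of processed signals (limma adjusted p 0.228 and 0.200) lost it as well.

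Most genes of myelin lipid synthesis were not called. Of 24 genes of the galactolipid, fatty acid and cholesterol pathways 1 rose, 0 fell and 23 were not called, and the median change was 0.16 with 21 above 0. The gene that rose was Srebf2, the main transcriptional activator of cholesterol synthesis, by 0.72 (SE 0.17, limma adjusted p 0.0834), and a second probe of it rose by 0.59 (limma adjusted p 0.0442). The call on the brightest probe was lost without replicate 2 (limma adjusted p 0.170) or 4 (limma adjusted p 0.137) of 3M. In 29M it was lost without replicate 1 (limma adjusted p 0.200), 2 (limma adjusted p 0.197) or 4 (limma adjusted p 0.187). With the replicate block it was also lost (limma adjusted p 0.187). Processed signals lost it too, set to a percentile (limma adjusted p 0.160) or in the variance stabilising model (limma adjusted p 0.154). Dhcr7, which catalyses the last step of cholesterol synthesis, had the lowest change, at -0.15 (limma adjusted p 0.755).

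Among 16 transcription factors of the oligodendrocyte lineage Nkx6-2 was again the gene that rose, 0 fell and 15 were not called, with a median change of 0.17 and 12 above 0. Of 13 measured genes of newly formed oligodendrocytes 0 rose and 1 fell, with a median of 0.12 and 8 above 0. The gene that fell was Gpr17, a receptor of cells that are about to mature. Its log2 intensities were 13.77, 13.56, 13.33 and 13.72 in 3M and 12.58, 12.80, 13.06 and 11.98 in 29M. The groups were separate and the change was -0.99 (SE 0.21, limma adjusted p 0.0564). The call was lost in 6 of 18 settings. Among these were slide as a fixed block (limma adjusted p 0.124) and the replicate block (limma adjusted p 0.152). In 3M it was lost without replicate 2 (limma adjusted p 0.147) or 4 (limma adjusted p 0.120). In 29M it was lost without replicate 1 (limma adjusted p 0.146) or 2 (limma adjusted p 0.117). Enpp6, an early marker of differentiating oligodendrocytes, had the highest change of that list, 0.52 (limma adjusted p 0.116).

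**Figure D4:**
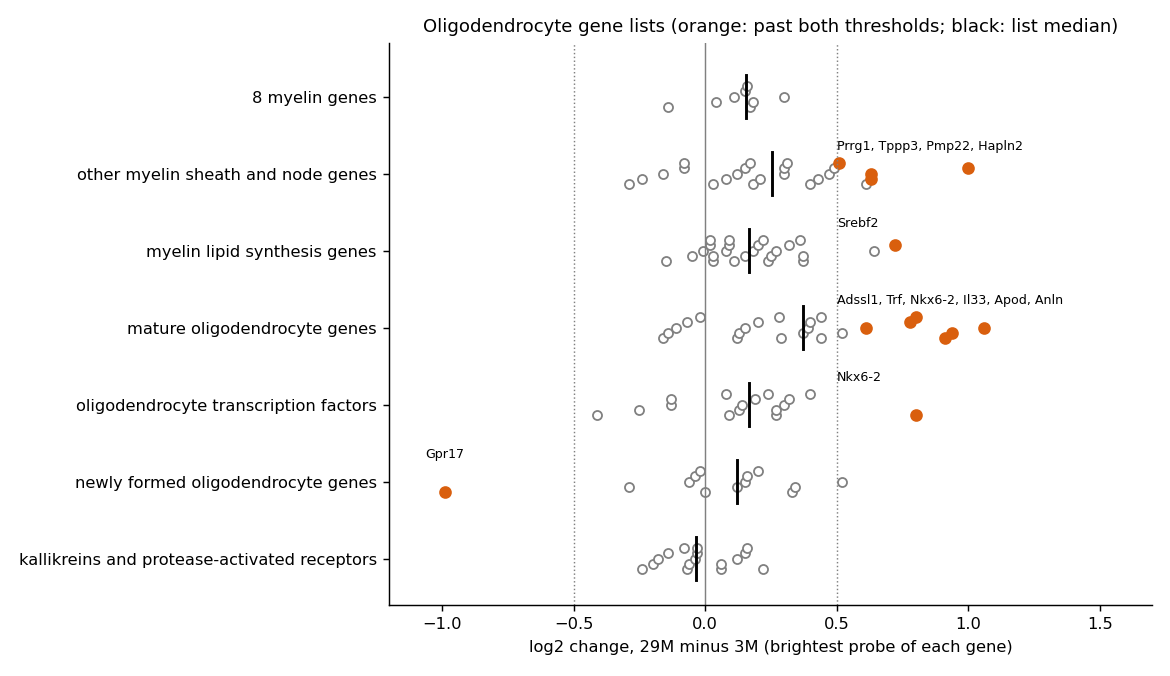
Log2 change of 29M minus 3M (horizontal axis) of each gene, by its brightest probe, in the 8 myelin genes and in 6 lists of related genes (vertical axis). Orange points passed both thresholds and are named, black bars are list medians and dotted lines mark a size of 0.5. No point of the 8 myelin genes or of the kallikrein and receptor list is orange.

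None of the other kallikreins that were read passed the test. Of 12 other kallikrein genes and 4 protease-activated receptors 0 were called, and the median change was -0.03 with 6 of 16 above 0. The list is limited by signal, since 9 of the 16 were well above background on all 8 arrays and 3 on none. Klk13 had the highest change, 0.22 (limma adjusted p 0.422), and was well above background on 2 arrays of 3M. Klk11 had the lowest, -0.24 (limma adjusted p 0.252). Klk8, the kallikrein neuropsin of hippocampal neurons, is named after its values were seen. It had log2 intensities of 12.53, 12.66, 12.46 and 12.84 in 3M and 12.54, 12.56, 12.41 and 12.19 in 29M, a change of -0.20 (limma adjusted p 0.433). All 4 receptors are named in addition to the called, highest and lowest genes. F2r, the thrombin receptor, which Klk6 can also activate, changed by -0.08 (limma adjusted p 0.910). F2rl1 changed by -0.18 (limma adjusted p 0.281) with separate groups, as had 11.1% of all probes, but was well above background on no array. F2rl2 changed by -0.03 (limma adjusted p 0.918) and F2rl3 by -0.07 (limma adjusted p 0.870).

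Markers of the cell types in the tissue were read in the same way, with a score per array built like the myelin score. Of the oligodendrocyte markers 14 of 15, and of the neuron markers 13 of 13, were well above background on all 8 arrays. Of 15 oligodendrocyte markers, which share Anln, Trf and Hapln2 with the lists above, 3 rose, 0 fell and 13 were above 0, with a median of 0.32. Their score ran from -0.38 to 0.10 in 3M and from 0.15 to 0.21 in 29M, so that it moved with Klk6 and separated the groups. Of 10 oligodendrocyte precursor markers 0 rose and 2 fell, Gpr17 and Cacng4 (-0.52, limma adjusted p 0.0919). The call of Cacng4 was near both thresholds. It was lost with slide as a fixed block (-0.48, limma adjusted p 0.164) and with the replicate block (limma adjusted p 0.138). Without replicate 4 of 29M it was also lost (-0.40, limma adjusted p 0.137). Both uses of processed signals lost it too (limma adjusted p 0.158 and 0.167). The median of the 10 precursor markers was -0.02, and their score ran from -0.04 to 0.17 in 3M and from -0.28 to 0.02 in 29M.

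Of 13 neuron markers 0 were called and the median was 0.00, with scores from -0.07 to 0.13 in 3M and from -0.05 to 0.00 in 29M. Scores of 3 further lists separated the groups in the same direction as Klk6. Of 10 microglia markers 1 rose (Trem2), the median was 0.35, and the score ran from -0.29 to 0.03 in 3M and from 0.09 to 0.26 in 29M. Of 11 astrocyte markers 1 rose (Gfap), the median was 0.22, and the score ran from -0.15 to 0.02 and from 0.03 to 0.14. Of 10 endothelial markers 1 rose (Vwf), the median was 0.20, and the score ran from -0.10 to -0.09 and from 0.02 to 0.16. The part of any of these cell types in the rise of Klk6 was not tested.

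The scores of markers of neighbouring tissue overlapped between the groups. Of 8 Schwann cell markers 1 rose (Cdh19, 0.74, limma adjusted p 0.00372), 2 were well above background on no array and the median was 0.07. The groups were also separate for the brightest probe of Ncmap (0.39, limma adjusted p 0.236), and another probe of Ncmap rose by 0.59 (limma adjusted p 0.0980). The score of the list ran from -0.15 to 0.07 in 3M and from -0.03 to 0.07 in 29M. Of 8 choroid plexus markers 0 were called, with a median of 0.08 and scores from -0.79 to 0.39 in 3M and from -0.23 to 0.15 in 29M.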

How the data were processed

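The sample titles gave each array's group and replicate number. For each array the authors deposited scanner output as spot intensities on a linear scale, made per the file headers with Agilent Feature Extraction 10.7.3.1 and not normalized between arrays. The study's methods name another version and design. The deposited series table holds intensities that equal local backgrounds (8 of 8 columns, 7 of them those of another sample, medians 26.7 to 34.8, tolerance 0.001) and was not used as expression. Its scale, centring and direction as expression stay unknown.

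Following the study's methods, variance stabilising normalization was applied, here to the median spot intensity, because the planned mean was not in the files used. Control spots and outlier spots (127 to 190 per array) were left out. The model was implemented in R 4.3.3 (trimming quantile 0.9, 7 iterations), since the package was not installed. In limma 3.58.1 a linear model of age group was run over all probes with at least 3 usable arrays per group, with eBayes and Benjamini-Hochberg adjustment, and called at an adjusted p under 0.1 and 1.414-fold. On simulated data with 39429 probes and 200 changed, 93.5% were recovered and 9.22% of calls were false. Recovery at sizes as small as those of the myelin probes was not tested separately. Accessions in the files matched RefSeq genes of GRCm38.p6 for 26055 probes (66.1%). The array was designed on mm9, so the promoter windows and their coordinates come from RefSeq.

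For a gene with several probes the brightest one on average stands for the gene. Named were all 9 genes with every probe, and of each list the called members and those with the highest and the lowest change, of which 1 is not reported here. The genes most like Klk6 and the myelin mean were named as well, 5 for each. Members, lists and tests were chosen with earlier results of these data known. Alternatives covered normalization, outlier spots, dim probes, slide, replicate number, variance prior, probe choice and each array left out. The number of arrays limits the precision.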

Additional observations from a re-analysis of the deposited data

Results flagged for a closer look

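In 6 of 110 groups of 4 values an array lay apart from the other 3 (its gap to the nearest divided by the range of the group above Dixon's 95% critical value), where chance gives about 5.5, or 1 in 20. The Klk6 level of replicate 4 of 29M was 10.82 against 12.57 to 12.87 (gap 0.855), and this array was also lowest in Ugt8a (gap 0.832), at 12.36 against 12.99 to 13.12, and in the precursor marker score (gap 0.833), at -0.28 against -0.03 to 0.02. Replicate 1 of 3M, the array marked for evaluation, was lowest in Nfasc (gap 0.858), at 14 against 14.45 to 14.53, in Dhcr7 (gap 0.968), at 11.07 against 11.85 to 11.87, and in the score of the lipid synthesis list (gap 0.846), at -0.36 against -0.03 to 0.03. The share of spots well above background was 78.9% in replicate 4 of 29M and 76.2% in replicate 1 of 3M, the 2 lowest of the 8 arrays, and the part of signal quality in these gaps was not tested.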

How the results depend on the processing

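Klk6 was called higher in 17 of 18 alternative settings, with changes from 2.76 to 3.55 and limma adjusted p from 0.00989 to 0.105, and leaving out each array gave 2.76 to 3.55. The exception was the replicate block (3.08, limma adjusted p 0.105), with which 267 probes were called higher and 145 lower in place of 491 and 322. Same-numbered arrays of the groups deviated from their group means with correlations of -0.244, 0.207, -0.231 and 0.0715, and 1 of 4 arrays of 3M correlated best with its own number, so the numbers were not taken as pairs. The median of the 8 myelin genes, 0.15, ran from 0.08 to 0.22 over the alternatives. The number of myelin probes called higher was 0 apart from 1 with slide as a fixed block and 1 without replicate 4 of 3M, a range of 0 to 1 over arrays left out, and 0 were called lower in any setting. Over all probes, those called higher ran from 261 to 844 with an array left out, namely 844 without replicate 1, 261 without replicate 2 and 309 without replicate 3 of 3M, and 263 and 279 without replicates 1 and 2 of 29M. Those called lower ran from 129 to 622, namely 622 and 129 without replicates 1 and 2 of 3M, and 145, 166 and 156 without replicates 1, 2 and 4 of 29M, and they were 171 when processed signals went into the variance stabilising model. Signs turned for Mobp with slide as a fixed block (-0.06) and without replicate 3 of 3M (-0.06), replicate 3 of 29M (-0.01) or replicate 4 of 29M (-0.08; range with an array left out -0.08 to 0.14), for Dhcr7, at the printed precision to 0, with slide as a fixed block (0.00) and for Ermn with the mean of all its probes (0.26). The cause was not tested. With slide as a random block the correlation within slides was 0.0482. With 4 arrays a group, the intervals of the myelin probes leave room for changes in either direction except for Mag and the second probes of Mbp and Mobp, and 3 of the 16 genes of the kallikrein and receptor list were well above background on no array.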
